A study of Mus musculus with 32 samples.

Results

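The 10 genes described here mark astrocytes, the star-shaped glia of the central nervous system, or rise in them when the tissue is injured. They were chosen by name, as the rows of the spinal cord table whose Ensembl identifiers carry the symbols *Gfap*, *Vim*, *Serpina3n*, *Cd44*, *Aqp4*, *Slc1a2*, *Slc1a3*, *Gja1*, *Aldh1l1* and *S100b*. All 10 were found among the 74021 genes of the table, and all 10 were among the 17702 genes with enough counts to be tested.

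Astrocytes clear glutamate from synapses, buffer potassium and water around blood vessels, and are coupled to each other by gap junctions. In amyotrophic lateral sclerosis (ALS) and in its mouse models they become reactive around dying motor neurons, with more intermediate filaments and secreted acute-phase proteins and less glutamate transporter. Reactive astrocytes are known to respond to cytokines, some of which come from microglia, the resident immune cells that carry the checkpoint receptor LAG-3 in this model.

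Bulk RNA-seq was performed on lumbar spinal cord of mice at postnatal day 140 (P140), a late symptomatic stage. The control group was SOD1G93A/LAG-3+/+ (3 libraries) and the knockout group was SOD1G93A/LAG-3-/- (3 libraries). All 6 mice carried the human mutant SOD1G93A transgene, and the knockout mice carried a targeted disruption of *Lag3* in all cells, so neither group is a healthy cord and the deletion is not limited to microglia. The mice were bred as littermates on a mainly C57BL/6 background, and the *Lag3* allele is of 129 origin. Total RNA of the whole tissue was sequenced, and in such samples fewer astrocytes and less RNA per astrocyte cannot be told apart.

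Libraries held 22502874 to 25222709 counts in the control and 19430102 to 26994524 in the knockout group. Levels are in CPM, the counts put on 1 scale by library size and TMM factor. Fold changes, their standard errors (SE) and p-values come from the quasi-likelihood test of edgeR, and p-values were adjusted over all genes tested by the method of Benjamini and Hochberg (BH). *Lag3* was at 74.5, 43.4 and 61.4 CPM in control replicates 1 to 3 and at 5.72, 5.60 and 5.50 CPM in knockout replicates 1 to 3, a log2 fold change of -3.41 (SE 0.19, BH-adjusted p = 4.3e-05 in edgeR). In 2 of the control libraries *Xist* and Y-linked transcripts went against the listed sex. By these transcripts all 3 control libraries were female, and of the knockout libraries 1 was female and 2 were male, so that genotype and sex are partly confounded. Mitochondrial genes took 4.60% to 6.78% of the counts in the control and 7.99% to 14.8% in the knockout libraries. The Schwann cell and fibroblast genes *Prx* and *Dcn* summed to 351 CPM in knockout replicate 2 and to 8.06 to 11.9 CPM in the other libraries. Fold changes also followed transcript length, from a median on the log2 scale of 0.56 in the first to -0.56 in the last of 10 equal bins of tested genes, ordered from short to long transcripts.

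The astrocyte genes did not move as a block. A gene passed the test at a BH-adjusted p under 0.1. By this rule 6 of the 10 were lower in knockout cord (*Serpina3n*, *Aqp4*, *Slc1a2*, *Gja1*, *Vim* and *Cd44*), 1 was higher (*S100b*), and 3 did not pass (*Gfap*, *Slc1a3* and *Aldh1l1*). Of all genes tested 47.1% passed, 23.9% lower and 23.1% higher, so 7 of 10 stands against a high background. With an absolute log2 fold change above 1 required as well, 1 of the 10 was called (*Serpina3n*, lower), against 7.52% of all genes in either direction and 3.15% lower. The median log2 fold change of the 10 was -0.43, and that of all genes tested was 0.00. In 5 of the 10 every knockout library lay below every control library and in 1 above, as in 26.1% and 25.5% of all genes tested (51.6% in either direction).

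**Figure D1:**
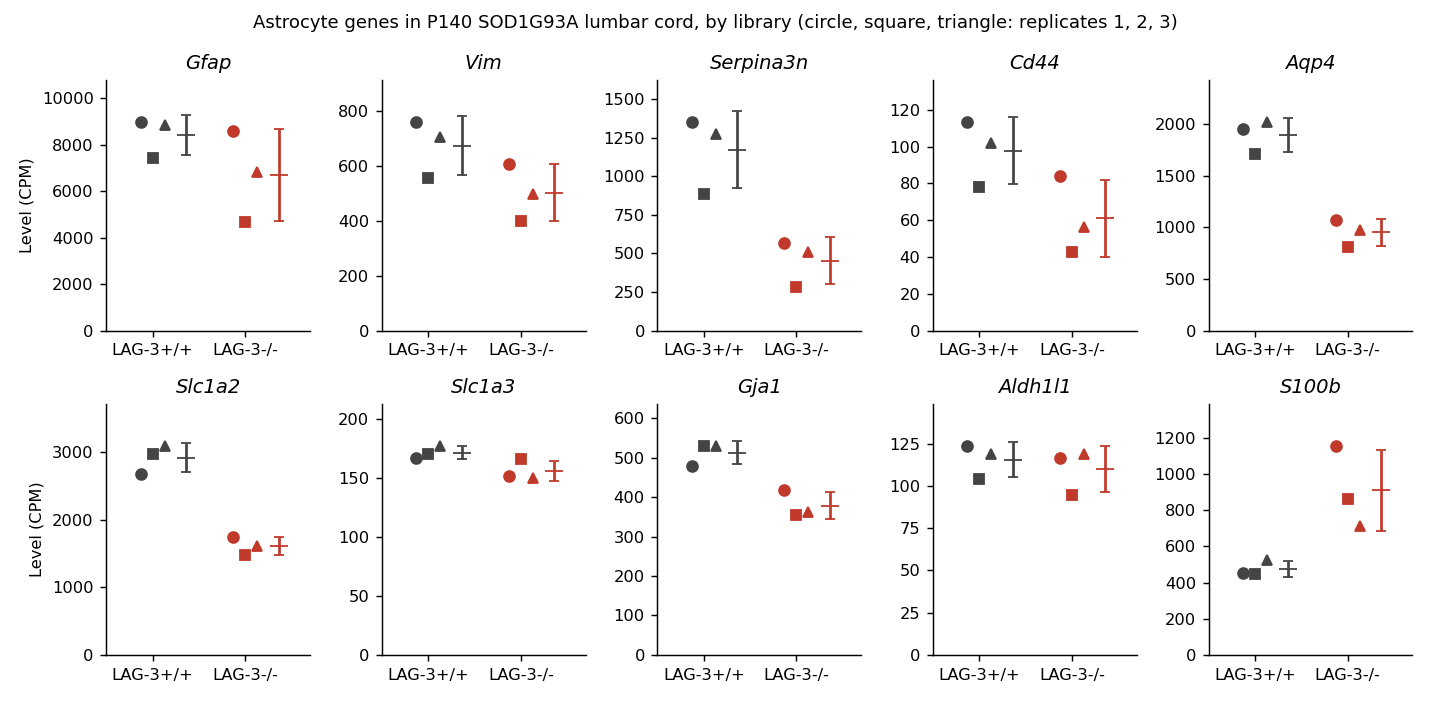
Level of each astrocyte gene in CPM (vertical axes, from 0) in the 3 SOD1G93A/LAG-3+/+ (grey) and 3 SOD1G93A/LAG-3-/- (red) cord libraries; symbols mark replicates 1, 2 and 3, and the bar beside them is the mean ± SD. *Serpina3n*, *Aqp4*, *Slc1a2*, *Gja1* and *Slc1a3*, the last of which did not pass the test, lay lower in every knockout library and *S100b* higher. The groups overlapped for *Gfap*, *Vim*, *Cd44* and *Aldh1l1*.

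The intermediate filament genes are the classical readout of astrocyte reactivity. *Gfap* (ENSMUSG00000020932, chromosome 11 from 102778159 to 102791738 in GRCm39, minus strand, 9 exons in its canonical transcript) encodes glial fibrillary acidic protein, an astrocyte filament that rises with reactivity. It stood at 9000.5, 7450.1 and 8839 CPM in the control and at 8599.5, 4673 and 6829 CPM in the knockout libraries. Knockout replicate 1 lay within the control range, and the other two knockout libraries lay below it. The mean fell by 20.5%, with a log2 fold change of -0.33 (SE 0.22, 95% interval -0.81 to 0.15) that did not pass the test (BH-adjusted p = 0.257 in edgeR). When libraries were left out 1 at a time, *Gfap* passed in 1 of 6 fits, at -0.55 without knockout replicate 1 (BH-adjusted p = 0.0614 in edgeR), and the log2 fold change was -0.13 without knockout replicate 2 (0.677). With the sex read from the libraries as a covariate, which compares only knockout replicate 1 with the controls, it was 0.03.

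*Vim* (ENSMUSG00000026728, chromosome 2 from 13578738 to 13587639, plus strand) encodes vimentin, a filament that astrocytes share with endothelial cells, fibroblasts and immune cells. Its levels were 760.5, 553.7 and 703.6 CPM in the control and 607.2, 400.3 and 495.1 CPM in the knockout libraries. The groups overlapped, since knockout replicate 1 exceeded control replicate 2. The log2 fold change was -0.43 (SE 0.17, BH-adjusted p = 0.0726 in edgeR). When libraries were left out 1 at a time, *Vim* failed the test in 4 of 6 fits, with log2 fold changes from -0.59 to -0.29 and BH-adjusted p up to 0.252 in edgeR, which was the value without knockout replicate 2. In each library *Vim* stood at 7.06% to 8.57% of the *Gfap* level in CPM, with no order between the groups.

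*Serpina3n* (ENSMUSG00000021091, chromosome 12 from 104372810 to 104380597, plus strand), which encodes a secreted serine protease inhibitor of the acute-phase response and is induced in reactive astrocytes after many kinds of injury, had the largest change of the 10. The control libraries held 1355.6, 887.6 and 1277 CPM and the knockout libraries 568.7, 279.6 and 509.5 CPM. Every knockout library lay below every control library, and the mean fell by 61.4%. The log2 fold change was -1.37 (SE 0.27, 95% interval -1.99 to -0.76, BH-adjusted p = 0.0044 in edgeR). It passed in each of the 6 fits that left out 1 library, with log2 fold changes from -1.58 to -1.12.

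The fall of *Serpina3n* was larger than that of *Gfap* within the same libraries. *Serpina3n* counts were 15.1%, 11.9% and 14.4% of the *Gfap* counts in the control libraries and 6.61%, 5.98% and 7.46% in the knockout libraries, with no overlap. Paralogs of *Serpina3n* lie in the same cluster, and estimated counts can be split among genes of similar sequence. Of 10 such paralogs 4 had enough counts to be tested, and the list summed to 3.35 to 6.12 CPM in the control and 3.78 to 4.85 CPM in the knockout libraries. These sums are small beside *Serpina3n* in every library. *Serpina3h* and *Serpina3i*, both under 2 CPM, had log2 fold changes of -1.06 and -1.48 (BH-adjusted p = 0.0680 and 0.0651 in edgeR), and *Serpina3c* of 1.26 (BH-adjusted p = 0.0596 in edgeR).

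*Cd44* (ENSMUSG00000005087, chromosome 2 from 102641486 to 102732010, minus strand) encodes the hyaluronan receptor of reactive astrocytes, which microglia and infiltrating leukocytes also carry. It was at 113.6, 77.8 and 102.1 CPM in the control and at 83.8, 42.6 and 56.5 CPM in the knockout libraries. As for *Vim*, knockout replicate 1 lay above control replicate 2. The log2 fold change was -0.69 (SE 0.25, BH-adjusted p = 0.0688 in edgeR). *Cd44* no longer passed without control replicate 1 (BH-adjusted p = 0.178), control replicate 3 (0.164) or knockout replicate 3 (0.220) by the same test in edgeR.

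*Aqp4* (ENSMUSG00000024411) encodes aquaporin-4, the water channel of the astrocyte endfeet that wrap blood vessels, and had the smallest p of the 10 genes. The control libraries held 1950.2, 1711 and 2026 CPM and the knockout libraries 1069.6, 811.4 and 979.7 CPM. The groups did not overlap, and the mean in the knockout group was 0.503 times that in the control group. The log2 fold change was -0.99 (SE 0.15, 95% interval -1.32 to -0.66, BH-adjusted p = 0.000737 in edgeR), just short of the minimum of 1 that the study set for a call. Leaving out single libraries moved it between -1.08 and -0.89, with every fit passing.

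Of the glutamate transporter genes *Slc1a2* passed the test as counted and *Slc1a3* did not. *Slc1a2* (ENSMUSG00000005089, chromosome 2 from 102488574 to 102621129, plus strand) encodes GLT-1 (EAAT2), the main glutamate transporter of the adult cord, whose loss is a known feature of ALS tissue. Its levels were 2679, 2979 and 3096 CPM in the control and 1745.6, 1484 and 1613 CPM in the knockout libraries. Every knockout library was lower, the mean fell by 44.7%, and the log2 fold change was -0.85 (SE 0.14, BH-adjusted p = 0.00116 in edgeR). *Slc1a3* (ENSMUSG00000005360, chromosome 15 from 8663604 to 8741595, minus strand) encodes GLAST (EAAT1), the other astrocytic transporter. It was at 166.7, 170.3 and 177.4 CPM in the control and at 152.1, 166.3 and 150.1 CPM in the knockout libraries. The knockout libraries lay just below the control libraries, with a log2 fold change of -0.14 (95% interval -0.36 to 0.09, BH-adjusted p = 0.331 in edgeR) that did not pass. In CPM, *Slc1a2* exceeded *Slc1a3* 16.1-, 17.5- and 17.5-fold in the control libraries and 11.5-, 8.92- and 10.7-fold in the knockout libraries, a ratio that is not per transcript length. It also takes in the trend of fold changes over transcript length. With offsets that take out the trends over length and GC content, neither gene passed. *Slc1a2* was then at -0.19 (95% interval -0.54 to 0.16) and *Slc1a3* at 0.07 (-0.15 to 0.28).

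*Gja1* (ENSMUSG00000050953, chromosome 10 from 56253241 to 56278609, plus strand) encodes connexin 43, which forms the gap junctions between astrocytes. The control libraries held 478.7, 529.6 and 528.5 CPM and the knockout libraries 416.9, 353.7 and 363.1 CPM. All knockout libraries were below all control libraries, with a log2 fold change of -0.44 (SE 0.12, BH-adjusted p = 0.0148 in edgeR). *Aldh1l1* (ENSMUSG00000030088, chromosome 6 from 90463409 to 90577185, plus strand), a folate enzyme gene used as a marker of astrocytes whether reactive or not, did not pass the test. It was at 123.7, 104.3 and 118.9 CPM in the control and at 116.6, 94.5 and 119.1 CPM in the knockout libraries. The ranges of the groups overlapped, and the log2 fold change was -0.07 (95% interval -0.34 to 0.19, BH-adjusted p = 0.673 in edgeR), an interval that leaves out falls beyond 0.34 on the log2 scale at a confidence level of 95%.

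The sequence 5′ of these genes was searched for the STAT motif TTCNNNGAA and the AP-1 motif TGANTCA, on both strands of the 250 bases before the start of the canonical transcript (GRCm39), because Stat3 and AP-1 are known to act in reactive astrocytes. Of the 10 genes 1 held the STAT motif (*Slc1a3*) and 1 the AP-1 motif (*Gja1*), against 6.48% and 4.73% of 17694 such windows of tested genes. Both matches lie within the annotated spans of their genes given above, upstream of the canonical transcript only. They are shown in capitals in their surroundings, 5′ to 3′ on the strand of the gene.
*Slc1a3*, chr15:8740354-8740412, minus strand: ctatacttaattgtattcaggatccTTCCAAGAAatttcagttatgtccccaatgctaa
*Gja1*, chr10:56253352-56253408, plus strand: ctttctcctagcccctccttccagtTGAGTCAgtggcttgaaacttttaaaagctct
No such letters were found in this window of *Serpina3n*, *Gfap* or *Vim*.

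*S100b* (ENSMUSG00000033208, chromosome 10 from 76085090 to 76097159, plus strand) encodes a calcium-binding protein that astrocytes make and release and that oligodendrocytes also express. It was the only gene of the 10 that was higher in knockout cord. Its levels were 454.2, 449.2 and 524.4 CPM in the control and 1156.6, 862.5 and 715.9 CPM in the knockout libraries. All 3 knockout libraries exceeded all control libraries, and the mean was 1.92 times as high. The log2 fold change was 0.94 (SE 0.17, 95% interval 0.56 to 1.32, BH-adjusted p = 0.00186 in edgeR), and it passed with any single library left out.

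Some myelin genes were higher beside *S100b*, as were 23.1% of all genes tested. Of 4 oligodendrocyte markers 3 passed the test, all higher (*Mbp*, *Mog* and *Cnp*), with a log2 fold change of 1.0 for *Mbp*, the gene of myelin basic protein (BH-adjusted p = 0.00206 in edgeR). With offsets that take out the trends over transcript length and GC content, 1 of the 4 was higher, *Mbp* at 0.73 (BH-adjusted p = 0.0211 in edgeR), while *Mog* at 0.30 (0.107) and *Cnp* at 0.25 (0.196) did not pass. The 4 markers summed to 8764 to 9596 CPM in the control libraries and to 20617, 16581 and 14340 CPM in knockout replicates 1, 2 and 3, the same order in which *S100b* stood in these libraries. Their part in the result for *S100b* was not tested.

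Compared per length of transcript, the order of the genes differed between the groups. Division by length does not take out the trend of fold changes over transcript length, so the orders still hold it. In the control libraries *Gfap* led with 2931 ± 296 CPM per kb (mean ± SD, n = 3), followed by *Serpina3n* (521 ± 111), *Aqp4* (368 ± 31.9), *Vim* (307 ± 48.7), *S100b* (282 ± 24.9), *Slc1a2* (243 ± 17.9), *Gja1* (109 ± 6.19), *Slc1a3* (40.9 ± 1.30), *Aldh1l1* (27.5 ± 2.41) and *Cd44* (17.3 ± 3.23). The ranges of mean ± SD of *Vim* overlapped those of *Aqp4* and *S100b*, its neighbours in this order, and those of *S100b* and *Slc1a2* overlapped each other. In the knockout libraries *S100b* stood in the second place with 540.4 ± 133 CPM per kb behind *Gfap* with 2330 ± 684, and *Vim* (228 ± 47.2), *Serpina3n* (201 ± 67.8) and *Aqp4* (185 ± 25.4) followed with overlapping ranges of mean ± SD. *Slc1a2* (134 ± 10.9) came next, and its range overlapped that of *Serpina3n*. It was followed by *Gja1* (80.4 ± 7.26), *Slc1a3* (37.2 ± 2.11) and *Aldh1l1* (26.2 ± 3.23). *Cd44* was last in both groups, with 10.8 ± 3.71 CPM per kb in the knockout libraries.

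The 10 genes lie at different places on the trend over transcript length. The canonical transcripts of the 10 genes run from 1687 nt for *S100b* to 12025 nt for *Slc1a2*. *Slc1a2* belongs to bin 10, the longest transcripts, of which 73.1% were lower in the knockout libraries, and *S100b* to bin 3, of which 43.0% were higher. *Serpina3n* and *Vim*, in bin 4 (median log2 fold change 0.21), moved against the median of genes of their length. *Aqp4* and *Gja1*, in bin 8 (median -0.23), moved in its direction.

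**Figure D2:**
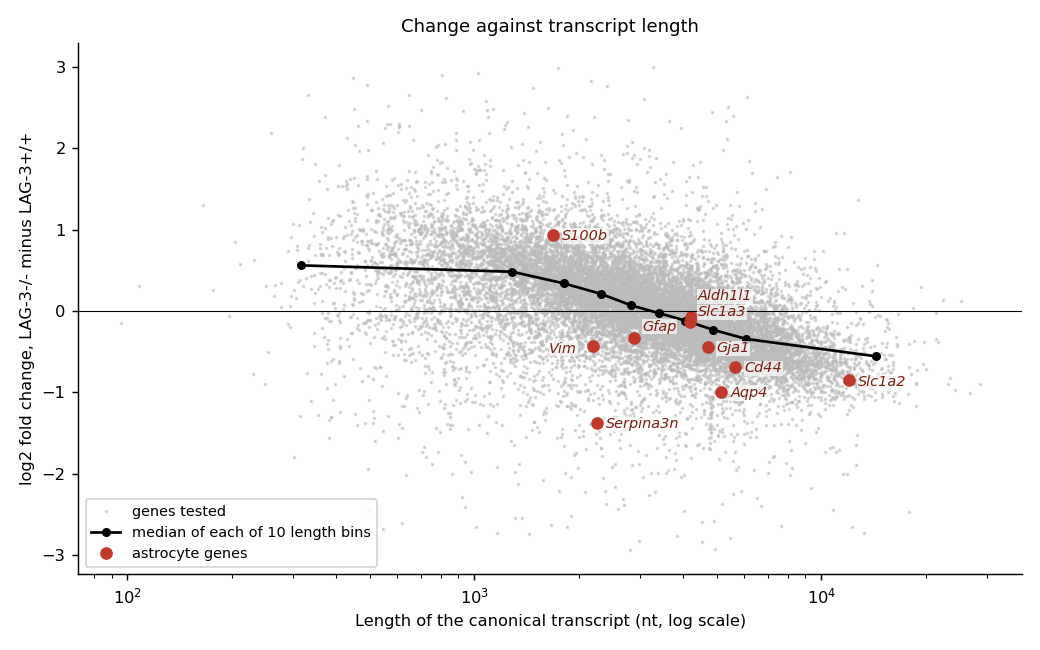
Log2 fold change between knockout and control cord (vertical axis) against the length of the canonical transcript in nucleotides (horizontal axis, log scale) for the genes tested (grey), with the median of each of 10 bins of length (black) and the 10 astrocyte genes (red); 54 genes past 30000 nt or an absolute log2 fold change of 3 are not drawn. The medians run from 0.56 for the shortest to -0.56 for the longest transcripts, and *Serpina3n* at -1.37 lies below the median of its bin, 0.21.

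With offsets that take each library's trend over transcript length and GC content out of the fit, 4 of the 10 genes passed, 3 lower and 1 higher, and 25.8% of all genes tested (11.8% lower and 14% higher). *Serpina3n* (log2 fold change -1.53, BH-adjusted p = 0.00774 in edgeR), *Vim* (-0.66, 0.0192) and *Aqp4* (-0.63, 0.0193) were lower and *S100b* was higher (0.69, 0.0122). *Slc1a2* went from -0.85 to -0.19 (95% interval -0.54 to 0.16, BH-adjusted p = 0.454 in edgeR), *Gja1* from -0.44 to -0.13 (0.495) and *Cd44* from -0.69 to -0.29 (0.576). The log2 fold change of *Slc1a3* turned to 0.07 (0.676). *Gfap* stood at -0.50 (95% interval -0.98 to -0.02, BH-adjusted p = 0.141 in edgeR) and *Aldh1l1* at -0.03 (0.879). The source of the trend over length was not tested.

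**Figure D3:**
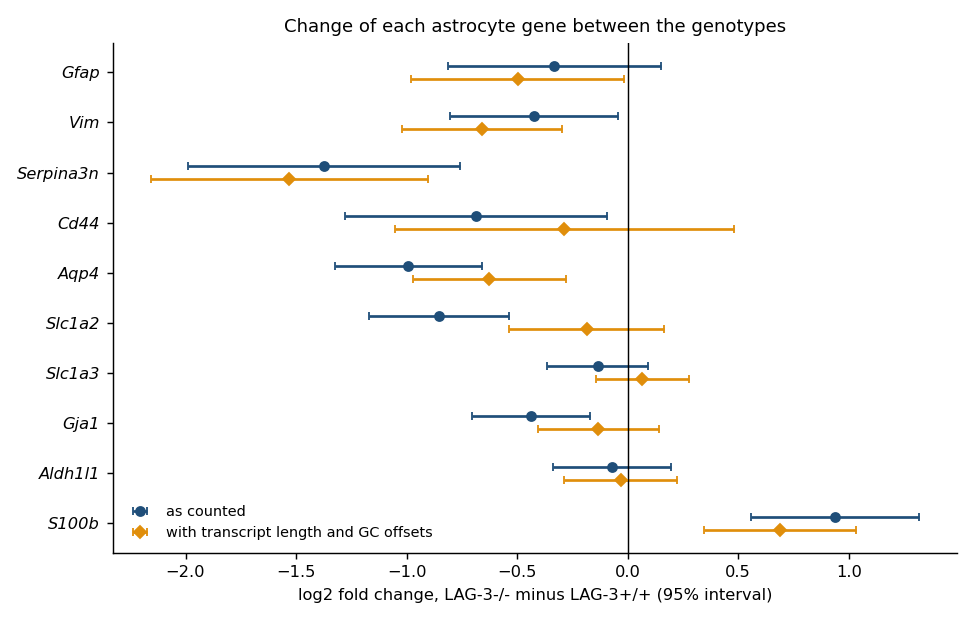
Log2 fold change of each astrocyte gene between SOD1G93A/LAG-3-/- and SOD1G93A/LAG-3+/+ cord with its 95% interval (horizontal axis), as counted (blue circles) and with offsets for transcript length and GC content (orange diamonds). *Serpina3n* is at -1.37 and -1.53 and *S100b* at 0.94 and 0.69, while *Slc1a2* moves from -0.85 to -0.19.

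All control libraries read as female, and of the knockout libraries only replicate 1 did. With the sex read from the libraries as a covariate, the genotype effect therefore rests on this 1 knockout library against the controls. Only effect sizes are given here for that fit. The log2 fold changes were 1.28 for *S100b*, -0.83 for *Aqp4*, -0.74 for *Slc1a2* and -1.04 for *Serpina3n*. *Vim* was at -0.15, *Cd44* at -0.22 and *Gja1* at -0.30. Without the 2 control libraries that went against the listed sex, which leaves 1 control library assumed to vary like the knockout libraries, *Aqp4* (-1.11, BH-adjusted p = 0.0463 in edgeR), *Slc1a2* (-0.96, 0.0517) and *Serpina3n* (-1.51, 0.0663) passed. *S100b* was then at 0.78 (BH-adjusted p = 0.139 in edgeR). Without knockout replicate 2, *Serpina3n* was at -1.12, *Aqp4* at -0.89, *Slc1a2* at -0.80, *Gja1* at -0.39, *Cd44* at -0.48 and *S100b* at 0.98, and all of these passed. With the length and GC offsets and the sex read from the libraries together, *S100b* stood at 1.0 and *Serpina3n* at -1.21. That fit, too, compares only knockout replicate 1 with the controls.

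Around these genes, wider lists of astrocyte genes moved in part. The list of other identity genes passed at 56.7% and that of glutamate, potassium and water handling at 50%. Of all genes tested 47.1% passed, 23.9% lower and 23.1% higher. With the length and GC offsets 25.8% of all genes passed, 11.8% lower and 14% higher. Of 30 other identity genes 8 were lower, 9 higher and 13 did not pass, with a median of -0.07 on the log2 scale. *Slc4a4*, the sodium bicarbonate cotransporter gene, fell by 0.82 on the log2 scale (668 ± 21.3 CPM in the control, mean ± SD, n = 3, and 379 ± 20.3 CPM in the knockout libraries), whereas *Paqr6* (0.79) and *Nkain4* (1.10) were higher. Of the 30, 5 were lower and 6 higher with the length and GC offsets, *Slc4a4* stood at -0.29 without passing (BH-adjusted p = 0.126 in edgeR), and *Paqr6* (0.32) and *Nkain4* (0.62) passed. Of 16 genes of glutamate, potassium and water handling 8 were lower and 8 did not pass (median -0.30). The lower ones included *Dag1* (-0.63), *Dmd* (-0.70) and *Dtna* (-0.55), which encode dystroglycan, dystrophin and α-dystrobrevin of the dystrophin complex of astrocyte endfeet. With the length and GC offsets 2 of the 16 were lower and none was higher, *Dtna* stood at -0.26 without passing (BH-adjusted p = 0.116 in edgeR), and *Dmd* turned to 0.04.

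Genes of astrocyte reactivity passed in 3 lists at 41.7%, 41.7% and 36.4%, against 47.1% of all genes tested (23.9% lower and 23.1% higher). Most of the listed genes that passed were lower. Of 12 reactivity genes shared by injury types 5 were lower and none was higher (median log2 fold change -0.43). *Osmr*, the oncostatin M receptor gene, was at 57.4 ± 11.5 CPM in the control and 20.2 ± 5.04 CPM in the knockout libraries (mean ± SD, n = 3 each), with a log2 fold change of -1.51 (BH-adjusted p = 0.000635 in edgeR), and the sphingosine 1-phosphate receptor gene *S1pr3* had -0.98 (0.00884). *Tnc*, the gene of the matrix protein tenascin C, had -0.43 (0.0636). Of 12 genes tied to lipopolysaccharide 4 were lower and 1 higher, among them *Iigp1* (-1.11), *Ggta1* (-0.81) and the complement gene *C3* (-0.74), which microglia also express. Of 11 tested genes tied to ischaemia 3 were lower (*Cd109* at -1.20, *Ptx3* at -0.95 and *Emp1* at -0.73) and 1 was higher. With the length and GC offsets the 3 lists held 5, 4 and 4 lower genes and 1, 0 and 1 higher ones. Of all genes tested 11.8% were lower and 14% higher in that fit. Not all of the listed genes that passed were those that passed before. *Tnc* was then at -0.06 (BH-adjusted p = 0.837 in edgeR) and *C3* at -0.55 (0.144), neither passing. *Timp1*, the gene of a metalloproteinase inhibitor, named after its values were seen, went from -0.44 (BH-adjusted p = 0.165 in edgeR) to -0.92 (0.0136).

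Signals known to act on astrocytes and their receptors had 13 lower genes of 25 tested and no higher one (median log2 fold change -0.51). The share that passed was 52%, against 47.1% of all genes tested, of which 23.9% were lower and 23.1% higher. *Fgf2*, a growth factor gene that astrocytes express, went from 118 ± 21.9 to 41.9 ± 11.4 CPM (mean ± SD, n = 3 each; log2 fold change -1.49), the endothelin B receptor gene *Ednrb* had -0.79 and the BMP receptor gene *Bmpr1a* -0.66. The interleukin-6 family receptor genes *Il6st* (-0.51) and *Lifr* (-0.52) and the kinase and factor genes *Jak1* (-0.51), *Jak2* (-0.45) and *Stat3* (-0.55), named after their values were seen, were lower too. With the length and GC offsets *Fgf2* (-1.03), *Ednrb* (-0.57) and *Stat3* (-0.42) passed. *Bmpr1a* (-0.22, BH-adjusted p = 0.147 in edgeR), *Jak1* (-0.15) and *Jak2* (-0.12) did not, while *Il6st* turned to 0.03 and *Lifr* to 0.09. In that fit 10 of the 25 tested genes of the list were lower and 3 higher. Of all genes tested 25.8% passed with the offsets, 11.8% lower and 14% higher. Of 18 genes of CD44 ligands, hyaluronan turnover and membrane linkers 8 were lower and 4 higher, so that 66.7% passed. The hyaluronidase gene *Hyal1* was at -1.22, the proteoglycan gene *Vcan* at -0.85 and the tenascin R gene *Tnr* at -1.16. Of the 18, 4 were lower and 3 higher with the length and GC offsets, with *Hyal1* at -1.29, *Tnr* at -0.52 and *Vcan* at -0.17, the last of which did not pass (BH-adjusted p = 0.283 in edgeR).

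**Figure D4:**
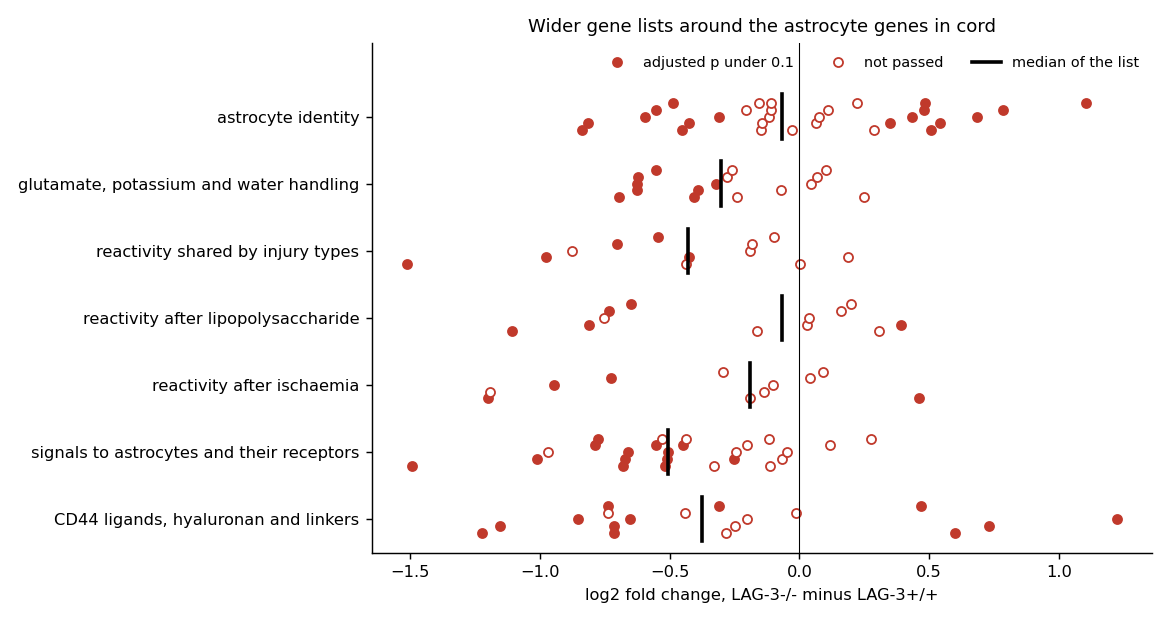
Log2 fold change between knockout and control cord (horizontal axis) of the tested genes in 7 lists around the astrocyte genes (vertical axis), filled where the adjusted p was under 0.1, with the median of each list as a black bar. The median lay at -0.51 for the signals and their receptors and at -0.43 for the reactivity genes shared by injury types, and the identity genes lay on both sides of 0 with a median of -0.07.

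Microglial genes moved beside the reactivity genes. The marker counts in this paragraph stand against 23.9% of all genes tested lower and 23.1% higher. With the length and GC offsets these shares were 11.8% and 14%. Of 7 markers of disease-associated microglia 5 were lower and none was higher, with log2 fold changes of -1.73 for *Clec7a*, -1.33 for *Itgax* and -0.74 for *Axl*, and the list summed to 654 to 913 CPM in the control and 409.8 to 634 CPM in the knockout libraries. Of 6 homeostatic microglial markers 1 was lower (*Cx3cr1*, -0.56) and 1 higher (*Tmem119*, 0.40), with sums of 549 to 676 and 444 to 601 CPM. Of 5 endothelial markers 2 were lower and 1 higher (141.9 to 151.6 CPM in the control and 106.9 to 125.6 CPM in the knockout libraries), and of 5 neuronal markers 1 was lower and none higher. Of 5 motor neuron markers 2 were higher, and 2 of 4 markers each of oligodendrocyte precursors and of pericytes and smooth muscle were lower. No ependymal or fibroblast marker passed, nor did the tested genes of the Schwann cell and T cell lists, and 1 of 3 tested neutrophil genes was higher. With the length and GC offsets 6 markers of disease-associated microglia and 2 homeostatic ones were lower and none of either was higher, with *Tmem119* at 0.05 (BH-adjusted p = 0.805 in edgeR). In that fit 1 endothelial, 1 pericyte and smooth muscle and 1 ependymal marker were lower, 1 motor neuron marker was higher, and no neuronal, oligodendrocyte precursor or neutrophil marker passed. The fibroblast list reached 358 CPM in knockout replicate 2, which also held 217 CPM of the Schwann cell list against 0.74 to 1.54 CPM in the other libraries. The part of these cells in the results for the astrocyte genes was not tested.

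The sorted microglia of the same series show which of the 10 genes microglia hold as well. These libraries were made from sorted CD11b+/CD45int cells and scaled in 2 separate tables, and the sources differ on whether the cord libraries were prepared with the same kit, so the levels are a description only. *Slc1a3* averaged 52.3 to 126 CPM over the 7 microglia groups, *Vim* 34.9 to 98.3 CPM and *Cd44* 14.3 to 116 CPM. For *Cd44* these levels span those of whole cord, with the highest average in LAG-3-low SOD1G93A microglia. In P140 SOD1G93A microglia *Cd44* averaged 18.1 CPM in the LAG-3+/+ and 36.8 CPM in the LAG-3-/- libraries. *Gfap* averaged up to 35.3 CPM in LAG-3-high SOD1G93A microglia and was listed at 0 in all 4 WT libraries. *Serpina3n* reached at most 1.81 CPM in any microglia library, and *Aqp4*, *Gja1*, *Slc1a2* and *S100b* averaged under 2 CPM in each group, while *Aldh1l1* averaged at most 3.88 CPM, in WT microglia.

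**Figure D5:**
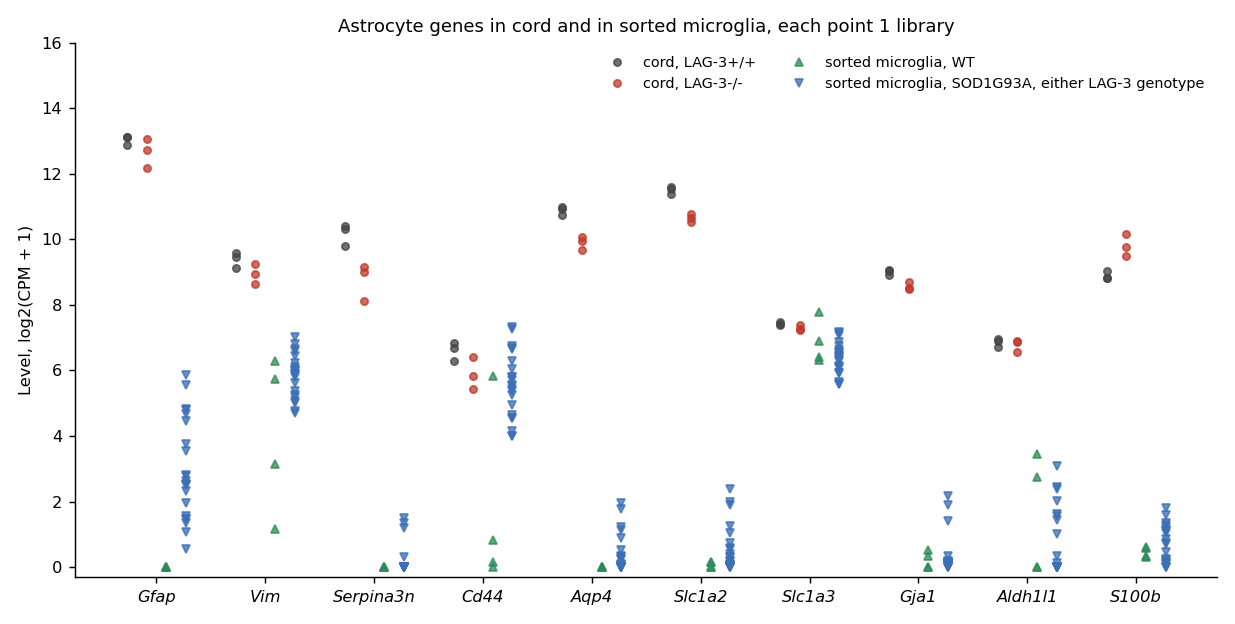
Level of each astrocyte gene as log2(CPM + 1) (vertical axis) in every cord library and every sorted microglia library of the series, each point 1 library. *Vim*, *Cd44* and *Slc1a3* are present in sorted microglia, whereas *Serpina3n*, *Aqp4*, *Slc1a2*, *Gja1* and *S100b* lie near 0 there.

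The genes whose levels ran closest to *Gfap* over the 6 cord libraries, by the root-mean-square difference of centred log2 CPM among 10641 genes of at least 10 CPM, were *Ctsd* (0.066), *Tnfrsf1a* (0.068) and *Galnt6* (0.075). *Ctsd*, the cathepsin D gene, was at 3196, 2402 and 3142 CPM in the control and at 2703, 1559.7 and 2305 CPM in the knockout libraries, lowest in knockout replicate 2 as *Gfap* was. Its annotation overlaps a second coding gene on the same strand. Closest to *Aqp4* were *Ildr2* (0.040), *Slc5a3* (0.042), which shares its locus with *Mrps6*, and *Gpam* (0.049), with log2 fold changes of -0.99, -1.01 and -1.01.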

How the data were processed

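Lumbar spinal cord RNA of 3 SOD1G93A/LAG-3+/+ and 3 SOD1G93A/LAG-3-/- mice at P140 was sequenced after, per the paper's methods, preparation with the NEBNext Ultra II Directional kit, where the labels name the SMART-seq kit that the methods give for sorted microglia. The authors trimmed reads with Trim Galore 0.6.7, quantified transcripts with Salmon 1.9.0 against GRCm39 and summed them per gene with tximport in R 4.2.1; the annotation release was not given in the sources used here. The deposited values are estimated counts per Ensembl gene, not normalized, and were rounded to whole numbers here.

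Symbols, coordinates, transcript lengths and promoter windows came from GENCODE vM39 (GRCm39), from which 71 identifiers with 0.0145% of the counts were absent. Genotype was tested by the robust quasi-likelihood F-test of edgeR 4.0.16 (R 4.3.3), scaled by TMM, on the 17702 genes kept by filterByExpr at a minimum count of 10 and a minimum total of 15, and p-values were adjusted by the Benjamini-Hochberg (BH) method. A gene passed at an adjusted p under 0.1 and was called with an absolute log2 fold change above 1 as well, which are the thresholds of the study's methods; 8441 genes had an unadjusted p under 0.05. Offsets for length and GC content were natural splines (5 degrees of freedom each) of centred log2 CPM in each library. Alternatives were DESeq2 1.42.0, limma 3.58.1 (voom), other scalings and filters, sex as a covariate, the replicate number as a block and single libraries left out. Sex read from the data, alone or with offsets, offsets without knockout replicate 2 or for the gene lists, and leaving out the 2 control libraries that went against the listed sex were chosen after seeing the data.

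The members and gene lists were chosen with earlier results of these data known; 3 listed genes are not reported here and were left out of the list counts and sums. Named genes are the 10 members, *Lag3*, the 3 tested genes of smallest p in each list, and the 3 genes most like *Gfap* and most like the member of smallest p. Outside this rule, *Il6st*, *Lifr*, *Jak1*, *Jak2*, *Stat3* and *Timp1* were named after their values were seen. On simulated cord counts of 17702 genes with 200 changed genes the fit recovered 77.0% of them, with 13.5% of calls false. With a length trend added 94.7% of calls were false, and 12.6% with the offsets. The added trend was linear over log2 length, the same in every knockout library and without a GC part. The offsets are built to remove such a trend, so the simulation cannot show how well they act on the real libraries. Per the paper the 3 replicates of each genotype were separate mice.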

Additional observations from a re-analysis of the deposited data

How the results depend on the processing

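Of the 10 astrocyte genes 7 passed the test, and the count stayed at 5 to 8 under DESeq2, voom, other scalings and filters, the listed sex, the replicate block and each library left out. It was 6 with length and GC offsets and the block, 4 with length and GC offsets (also without knockout replicate 2) and with sex read from the data, 3 without the 2 control libraries that went against the listed sex, and 1 with offsets and sex read from the data together. The call with a minimum fold change held 1 gene (*Serpina3n*), and 2 without TMM, without a filter, with sex read from the data and without the 2 control libraries, 0 with offsets and sex together, and 1 to 3 with single libraries left out. Over all genes, 8330 passed, against 4562 with offsets, 4669 with offsets and the replicate block, 2873 with offsets and without knockout replicate 2, 3165 with offsets and sex, and 3171 without the 2 control libraries; 1331 were called, against 803, 802 and 675 in the first 3 of these. The cause of these moves was not tested. In the fits with sex read from the data the genotype effect rests on knockout replicate 1 alone. Without the 2 control libraries it rests on 1 control library, so the counts of these fits are not like the others. In a fit with the replicate block 7 genes passed as well, and *Gfap* stood at -0.37 (BH-adjusted p = 0.158 in edgeR); same-numbered libraries correlated with r of 0.0223, 0.0106 and -0.0300, so the numbers were not taken as pairs. With offsets and the block together *Gfap* passed at -0.54 (0.0885).

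Directions that turned were those of *Gfap* (0.029) and *Aldh1l1* (0.012) with sex read from the data, *Aldh1l1* with single libraries left out (-0.15 to 0.028, above 0 without knockout replicate 2; 0.071 with offsets too), and *Slc1a3* with offsets (0.066; 0.066 with the block, 0.042 without knockout replicate 2). With offsets and sex together *Aldh1l1* (0.12), *Slc1a2* (0.074), *Slc1a3* (0.079), *Gja1* (0.051) and *Cd44* (0.24) turned. Directions in the fits with sex read from the data rest on knockout replicate 1 against the controls. Among listed genes *Dmd* (0.042), *Cldn5* (-0.048), *Myh11* (0.24), *Tmem212* (-0.28) and *Trac* (-0.092) turned with offsets. Without TMM the median log2 fold change of all genes was -0.13, and 35.5% of the passing genes were higher, against 49.2%; with offsets and sex together 63.1% were higher. Depth was not the limit for these genes, the lowest of which held 1079 counts (*Cd44*, knockout replicate 2).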
